A study of Homo sapiens with 4 samples.

Results

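Wide FOXA2 peaks are described here: intervals of 400 bp or more in the vehicle peak list, on chromosomes 1 to 22 and X, each with its best overlapping peak after GSK2879552. There were 1490 of them among 21065 vehicle peaks on these chromosomes (7.07%), and they covered 12.6% of the peak length. FOXA2 occupancy had been mapped by chromatin immunoprecipitation and sequencing (ChIP-seq) in PC3, an established androgen-independent prostate cancer cell line. Both groups were PC3 cells in medium with 5% charcoal-stripped serum: one received vehicle, the other 50 µM GSK2879552 for 4 hours. GSK2879552 blocks LSD1 (KDM1A), an enzyme that takes methyl groups off histone H3. Per the labels, 2 sequencing lanes per group are technical replicates, and 1 peak list per group covers both. The spread between cultures was not measured, so the groups could not be tested against each other, and each difference reported is one between 2 libraries. No dose or duration is given separately for vehicle, and the sample descriptions name ATAC-seq where titles and series name FOXA2 ChIP-seq, which was followed.

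FOXA2 belongs to the forkhead family, whose winged-helix domain can bind its site on nucleosomal DNA, and FOXA proteins are therefore called pioneer factors. In endodermal organs FOXA2 marks enhancers of liver, lung and pancreas genes, and in prostate tumours it is best known from neuroendocrine disease. A transcription factor peak normally spans little more than the sequenced fragments that meet at 1 bound site. An interval of several fragment lengths arises where fragments pile up high, where sites stand side by side, or where reads collect over a longer stretch of sequence. Peak width therefore carries information that the height of the summit alone does not.

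Members were selected by their vehicle width, so vehicle widths are given as a description. Widths ran from 400 bp to 3352 bp with a median of 452 bp (interquartile range 420 to 510). The largest class, 400 to 449 bp, held 727 peaks, and 43 peaks were 700 bp or wider. Just inside the limit, the 3 peaks of 400 bp with the highest −log10 p lay at chr20:22493003-22493402 with 104 fragments over the summit, chr10:76464402-76464801 with 110, and chr10:52863671-52864070 with 102. The chromosome 20 peak lies in the part of 20p11 that, as background, carries the FOXA2 gene itself. Just outside, 1 bp short of the limit, the peaks at chr2:19768997-19769395, chr10:69980977-69981375 and chr3:45667560-45667958 had 68, 66 and 62 fragments. Peaks on either side of the limit were alike in number, with 26 peaks 1 bp short of it and 25 of 400 bp.

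The number of fragments over a summit was computed from the deposited fold enrichment and −log10 p, as was the local background, the number of fragments the peak caller expected there. At wide peaks the summit held a median of 35 fragments (interquartile range 23.25 to 55), from 9 to 347. Vehicle peaks under 400 bp had a median of 18 (14 to 26). Wide peaks thus ranged from weak to the tallest of the list. In 41 of them the local background was 25 fragments or more, a group referred to as high-background positions. Results are given with and without them where they differ. The gene names added to a few regions are background knowledge of the hg19 map; no annotation of that build was used, and distances to genes and motifs were not analysed here.

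Most wide peaks were lopsided. The distance from the summit to the nearer end of the interval had a median of 164.5 bp (144 to 190), close to the length of the shortest vehicle intervals, 175 bp. The distance to the farther end had a median of 289 bp (251 to 347). As the width rose from 400 to 449 bp up to 600 to 699 bp, the median of the shorter side stayed between 162.5 and 166 bp, whereas that of the longer side rose from 255 to 459 bp. Up to 699 bp, the added width therefore lay mostly on 1 side of the summit. In the 43 peaks of 700 bp or more both sides were longer, with medians of 219 bp (168.5 to 313) and 617 bp. In 576 wide peaks (38.7%) the longer side was at least 2 times the shorter, and in 264 (17.7%) the sides differed by less than 25%. The longer side pointed towards higher coordinates in 737 and towards lower coordinates in 753 peaks. Among narrower peaks the medians of the sides were 148 and 170 bp from 300 bp to under 350 bp, the most even class. They were 159 and 212 bp from 350 bp to under 400 bp, 94 and 129 bp from 200 bp to under 250 bp, and 70 and 112 bp under 200 bp. The median ratio of the sides under 200 bp, 1.58, was thus close to the 1.57 of the narrowest wide class.

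**Figure D1:**
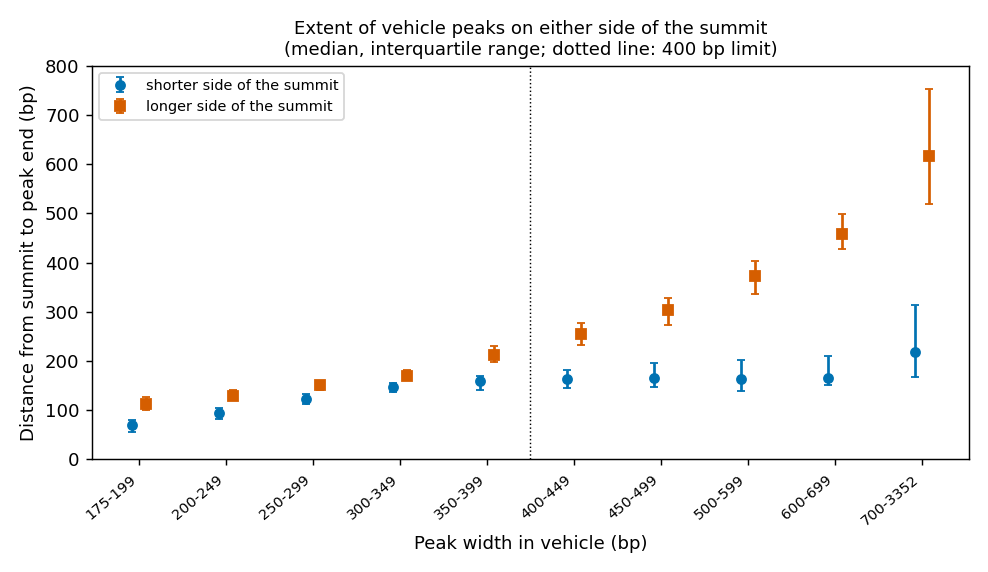
Distance in bp from the summit to the nearer (circles) and farther (squares) end of vehicle peaks, by peak width in bp; symbols are medians and bars interquartile ranges over peaks. From 400 bp up to 699 bp the shorter side stays at 162.5 to 166 bp while the longer side grows to 459 bp. From 700 bp the medians are 219 and 617 bp.

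Even and lopsided wide peaks differed in height. Outside high-background positions, 257 wide peaks whose sides differed by less than 25% held 51 fragments (median) over the summit, at a median width of 434 bp. The 162 most lopsided, with sides at least 3 times apart, held 23 fragments and were wider, at 542.5 bp. Even wide peaks were thus tall and only moderately wide, and the most one-sided ones were low and long. The height of a summit and the width of its interval are both vehicle values, so this describes the members and supports nothing else.

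Of the 1490 wide peaks, 1407 (94.4%, exact 95% binomial interval 93.1 to 95.5) overlapped a GSK2879552 peak by at least 1 bp. The share among all vehicle peaks was 62.0%. It was 89.4% (88.5 to 90.3) for the 4896 vehicle peaks from 300 bp to under 400 bp (called medium peaks from here) and 49.5% (48.7 to 50.3) for the 14679 under 300 bp. Intervals of shares cover counting error only and treat peaks as independent. All 43 peaks of 700 bp or more had a partner (interval from 91.8%). With high-background positions left out, 94.3% (93.0 to 95.5) of 1449 wide peaks overlapped.

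Because wide peaks were taller on average, the shares were also set side by side among peaks with equal fragment numbers, high-background positions left out; these classes were chosen after the data were examined. Among peaks with 15 to 19 fragments, 80.7% (73.8 to 86.5) of 161 wide peaks had an overlapping partner. This held for 68.8% (65.1 to 72.3) of medium peaks and 50.1% (48.6 to 51.5) of those under 300 bp. Among peaks with 20 to 29 fragments it was 94.2% (91.1 to 96.4), 91.9% (90.3 to 93.3) and 74.1% (72.6 to 75.6). From 40 fragments upwards each wide peak had a partner. At equal height, wide intervals met a GSK2879552 interval more often than those under 300 bp in each class below 60 fragments.

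A wide interval also offers more room for an overlap, and the order changed when summits were compared instead. A GSK2879552 summit lay within 100 bp of the vehicle summit for 83.7% (81.7 to 85.5) of wide peaks, against 59.4% of all vehicle peaks. Among peaks with 20 to 29 fragments the share was 77.8% (73.0 to 82.1) for wide peaks, 88.9% (87.2 to 90.5) for medium peaks and 72.9% (71.3 to 74.4) under 300 bp. At 15 to 19 fragments it was 56.5% (48.5 to 64.3), 62.2% (58.4 to 66.0) and 48.2% (46.7 to 49.7). By this measure wide peaks ranked below medium peaks in the classes from 15 to 99 fragments. Part of the overlap at weak wide peaks was thus with a GSK2879552 peak centred elsewhere in the interval.

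**Figure D2:**
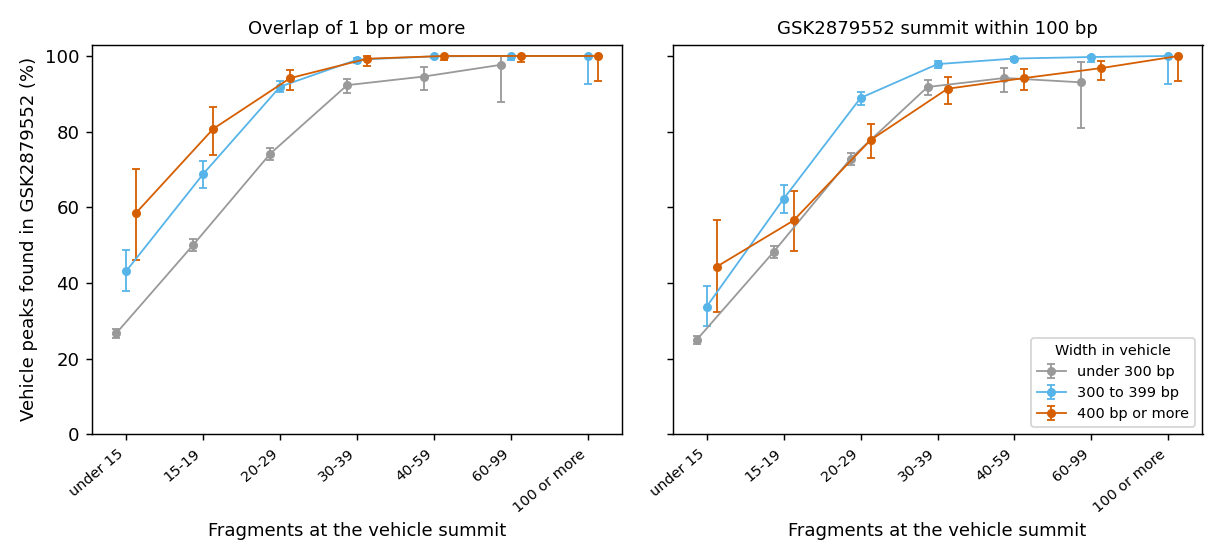
Share of vehicle peaks (%) found in the GSK2879552 list by overlap of 1 bp or more (left) or by a summit within 100 bp (right), against fragments at the vehicle summit, high-background positions left out; bars are exact 95% binomial intervals. At 20 to 29 fragments wide peaks reach 94.2% by overlap but 77.8% by summit, below the 88.9% of medium peaks (300 bp to under 400 bp).

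The 83 wide peaks without an overlap were weaker, with a median of 17 fragments against 37 at wide peaks with a partner. Their longer side was at least 2 times the shorter in 58 (69.9%), against 38.7% of all wide peaks. Lopsided wide peaks were also low. Outside high-background positions their medians were 28 fragments at sides 2 to 3 times apart and 23 at 3 times or more. Low fragment number and lopsided shape were therefore not told apart here. The tallest by −log10 p outside the GSK2879552 list was chr13:50940097-50940610, 514 bp wide with 27 fragments over a background of 1.42, 121055 bp from the nearest summit of the GSK2879552 list. The next were chr3:107962064-107962492 with 30 fragments and chr3:64028728-64029153 with 25, whose nearest GSK2879552 summits lay 75387 and 20413 bp away. These sites stood apart from any GSK2879552 peak, as did most of the 83: for 69 the nearest GSK2879552 summit was more than 10 kb away. Further such peaks were chr6:126501681-126502169 (22 fragments), chr8:110064625-110065155 (31), chr5:44997677-44998100 (24) and chr4:54568807-54569232 (24). The remaining 3 of the 10 with the highest −log10 p were chr9:21657167-21657577 with 22 fragments, chr18:3603458-3603894 with 27 and chr7:137638588-137639140 with 21. Of these, chr18:3603458-3603894 had a GSK2879552 summit 1424 bp away. A site without a called peak may still be bound, since the weakest vehicle summits called held 7 fragments and weak sites lie near that limit.

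Summits of wide peaks with a partner held fewer fragments after GSK2879552. The median was 28 fragments (19 to 42) at the partner, and the median log2 ratio, scaled for the background floors, was -0.38 (-0.59 to -0.17). Numbers were lower at 1235 of 1407 pairs (87.8%), equal at 36 and higher at 136 (9.67%), against 78.1% lower and 16.2% higher among all vehicle peaks with a partner. A change of at least 2-fold downwards was seen at 50 wide pairs (3.55%), where the background share was 4.07%. None was at least 2-fold higher (0 of 1407, which allows up to 0.262%), with 0.0460% among all pairs. Medium peaks had a median log2 ratio of -0.40 and those under 300 bp of -0.27.

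At equal height the ratios of wide and medium peaks lay close together. With 20 to 29 fragments in vehicle, the median log2 ratio was -0.40 in each of the 3 width groups. With 40 to 59 fragments it was -0.44 for wide peaks, -0.46 for medium peaks and -0.49 under 300 bp. With 60 to 99 it was -0.41 for wide peaks and -0.46 for medium peaks, but -0.18 (-0.30 to -0.03) for 42 pairs under 300 bp, whose peaks had a median local background of 18.9 fragments. With 100 or more it was -0.34 for 54 wide peaks and -0.41 for 48 medium peaks, with overlapping interquartile ranges (-0.50 to -0.25 and -0.55 to -0.26). Only sites called in both lists enter these ratios, and sites low in vehicle can enter only if they stayed above the calling limit. The smaller ratios in the lowest classes are to be read with that in mind. Classes were set by the vehicle number, over which the ratio is taken, so high classes lean towards lower ratios.

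**Figure D3:**
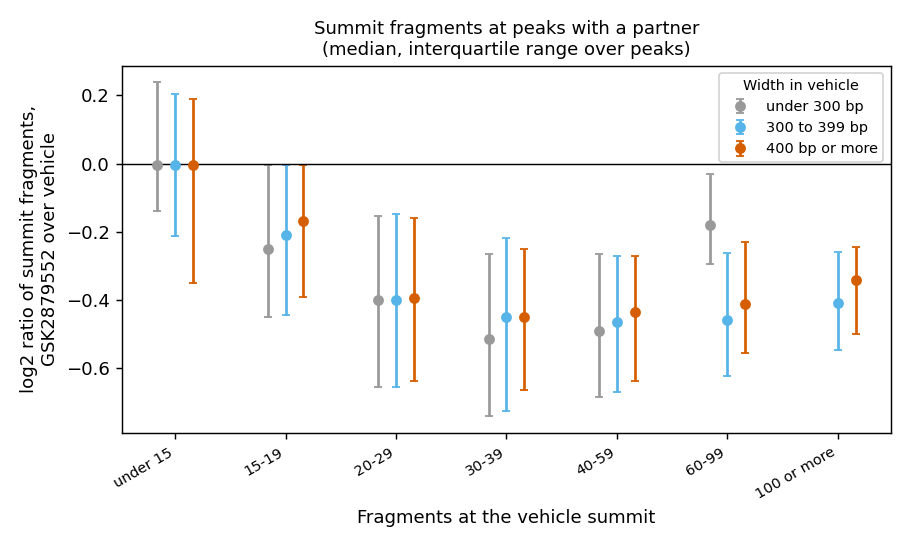
log2 ratio of fragments at the summit, GSK2879552 over vehicle, at peaks with a partner, against fragments at the vehicle summit, high-background positions left out; points are medians and bars interquartile ranges over peaks, by width in vehicle. From 20 fragments upwards the medians of wide peaks lie between -0.45 and -0.34, close to those of medium peaks.

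The tallest wide sites outside high-background positions were on chromosomes 10 and 12. At chr10:33444863-33445489, in the stretch that as background carries NRP1, the gene of the semaphorin and VEGF co-receptor neuropilin-1, summit fragments numbered 308 in vehicle and 256 after GSK2879552 and the widths were 627 and 562 bp. The neighbouring peak at chr10:33553128-33553559 was wider after GSK2879552, with 432 and 495 bp, although its fragments numbered 230 and 189. The peak at chr10:76635608-76636074 kept its width, with 467 and 465 bp, at 242 and 197 fragments. That at chr10:76559478-76560011 measured 534 and 451 bp, at 180 and 143 fragments. At chr12:28174653-28175105, in the stretch that carries PTHLH, the gene of parathyroid hormone-related protein, the widths were 453 and 448 bp at 198 and 168 fragments. All 5 had fewer fragments in the GSK2879552 library, while their widths moved in both directions. These 5 were chosen after their values were seen. They were picked for the most fragments in vehicle, a pick that leans towards lower GSK2879552 numbers.

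Of 54 wide peaks with at least 100 fragments outside high-background positions, 19 (35.2%) lay on chromosome 10, which held 6.69% of all wide peaks outside such positions. The 54 had a median local background of 6.66 fragments and a median fold enrichment of 16.9. All wide peaks outside such positions had medians of 2.47 and 9.87. The part of the local background in these fragment numbers was not tested. After GSK2879552 the fragment number was lower at 52 of the 54, and log2 ratios ran from -0.74 to 0.06. The number was lower at 87.8% of all wide pairs and at 78.1% of all vehicle peaks with a partner. Because the 54 were picked for a high vehicle number, the pick leans towards lower GSK2879552 numbers, and the count is a description. The partner was 400 bp or wider at 37 of the 54 (68.5%), against 37.2% of all wide pairs.

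Partners were also narrower. The partner of a wide vehicle peak had a median width of 367 bp (298 to 435), and the median difference from its vehicle peak was -82 bp (-154.5 to -30). It was narrower at 1256 of 1407 pairs (89.3%), equal at 5 and wider at 146 (10.4%); among all vehicle peaks with a partner 75.0% were narrower and 24.4% wider. The partner was itself 400 bp or wider at 523 pairs (37.2%, 34.6 to 39.8; 35.1% of all 1490), against 5.37% among all pairs, from 300 bp to under 400 bp at 526 and under 300 bp at 358. The share with a wide partner rose with vehicle width, from 21.1% at 400 to 449 bp to 58.1% at 500 to 599 bp and 83.7% at 700 bp or more. Choosing peaks by their vehicle width by itself favours narrower partners, so these counts are a description of the pairs.

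The reverse choice gave a different picture. The GSK2879552 list held 692 peaks of 400 bp or more (4.73% of 14642), 0.464 times the vehicle number, whereas the ratio of all peaks was 0.695. Of these, 690 (99.7%, 99.0 to 99.96) overlapped a vehicle peak, against 89.3% of all GSK2879552 peaks. Their vehicle partner was wider at 372, equal at 5 and narrower at 313, and it was 400 bp or wider at 522. Although chosen for width in GSK2879552, they were a median of 5 bp narrower there than in vehicle. Pairs chosen without favour to either list, by a mean width of 400 bp or more, gave a median difference of -35 bp (-89.5 to 0) over 843 pairs, with 629 narrower, 5 equal and 209 wider after GSK2879552. The shortest intervals of the lists differed by 7 bp (175 and 168 bp). Among pairs classed by their mean width, the median difference was -37 bp from 400 bp to under 500 bp and -29 bp from 500 bp. It was -33 bp from 300 bp to under 400 bp, -35 bp from 250 bp to under 300 bp, -42 bp from 200 bp to under 250 bp and -13 bp under 200 bp, so the values of wide pairs lay within the range of narrower ones.

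**Figure D4:**
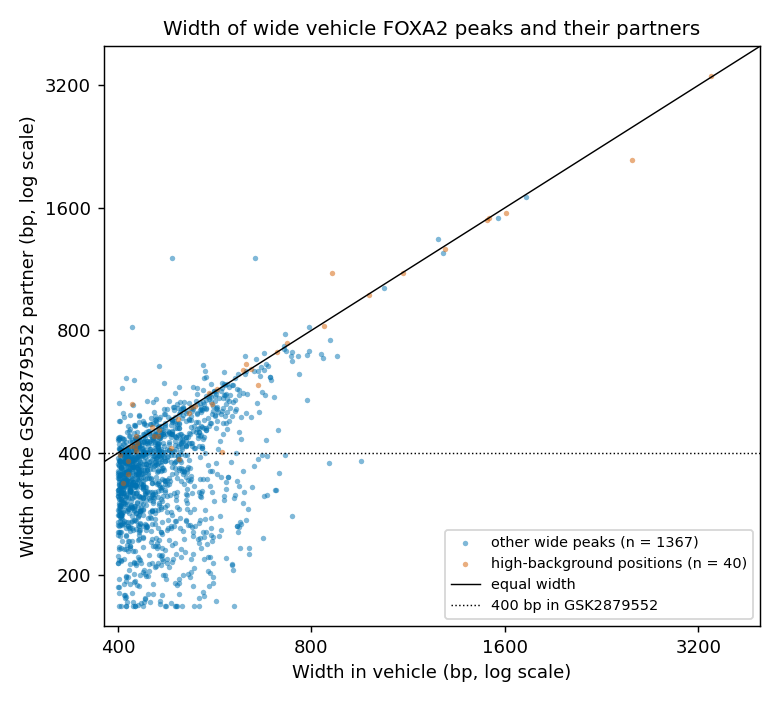
Width in bp of each wide vehicle peak (x axis) and of its GSK2879552 partner (y axis), both on log scales, for 1407 pairs; the solid line marks equal width and the dotted line 400 bp in GSK2879552. Most points lie under the solid line, 523 lie on or above the dotted line, and the 40 pairs at high-background positions lie near equal width.

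The ends of the partner were compared with those of the vehicle peak on either side of the vehicle summit. A vehicle side picked for being long gives a partner that ends further inside by the choice alone, so these distances are a description. Outside high-background positions, the partner ended a median of 52 bp (12 to 110.5) inside the vehicle interval on the longer side and 23 bp (1 to 53) inside on the shorter side. In peaks whose sides differed by less than 25% the distances were 32 and 29 bp. On the longer side the distance was 57 bp at sides 1.5 to 2 times apart, 75 bp at 2 to 3 times and 112 bp at 3 times or more, an order that follows from classing by the same vehicle ends. That on the shorter side stayed between 21.5 and 29 bp in all 5 classes. Medium peaks gave 27 and 18 bp, and all vehicle peaks with a partner 20 and 12 bp. In pairs with a mean width of 400 bp or more, the medians were 21 and 12 bp. With the choice turned, the GSK2879552 peaks of 400 bp or more were measured from their own summits. Their vehicle partner ended a median of 2 bp inside on the longer side and 7 bp outside on the shorter side. It thus also ended further in on the longer side, the direction that picking a long side favours.

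The strongest narrowing left short intervals, at 4 of the 5 sites with the lowest width ratios a single one. At chr2:171595710-171596315 the width went from 606 to 168 bp, the shortest interval of the GSK2879552 list, and fragments from 21 to 12. The peak at chr3:32463528-32464061 went from 534 to 168 bp with 21 and 13 fragments, and chr1:620835-621360 from 526 to 168 bp with 12 and 9. At chr6:110975278-110975845, of 568 bp, 2 GSK2879552 peaks were called, the larger of 173 bp. At chr11:122051145-122051688 the widths were 544 and 178 bp. All 5 were low in vehicle, with at most 26 fragments, and all were lower after GSK2879552.

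The strongest widening was of another kind. At chr8:43793115-43793600 and chr8:43793667-43794319 a single GSK2879552 peak of 1204 bp covered 2 vehicle peaks of 486 and 653 bp. It is the one GSK2879552 peak that served as partner to a pair of wide peaks. The local backgrounds of these 2 vehicle peaks were 9.80 and 11.3 fragments. The peak at chr9:140222177-140222597 was 421 bp in vehicle and 814 bp after GSK2879552, with 15 and 17 fragments. At chr2:40881074-40881485 the widths were 412 and 610 bp with 20 fragments in both lists, and at chr8:107467180-107467603 they were 424 and 605 bp with 27 and 19. In these widened intervals fragment numbers went in either direction.

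Some wide vehicle intervals overlapped 2 peaks of the GSK2879552 list. This held for 41 (2.91%) of the 1407 with a partner, against 0.337% (44) of all vehicle peaks with a partner. A wide interval has more room for 2 peaks, so the choice by vehicle width favours this contrast. The reverse count, GSK2879552 peaks over 2 vehicle peaks, is not given here. In vehicle these 41 had a median width of 612 bp, and in 40 of the 41 the longer side was at least 2 times the shorter. From the first start to the last end, the GSK2879552 peaks spanned a median of 600 bp. At chr8:134742308-134742858, of 551 bp with 93 fragments, the larger part was 346 bp wide with 67 fragments. At chr4:68264283-68264992 it was 455 bp with 84 fragments, against 710 bp and 80 in vehicle, and at chr14:61751854-61752479 it was 362 bp with 52, against 626 bp and 63. At chr1:234033099-234033811 the larger part of 356 bp held 47 fragments where vehicle had 48. At chr10:54232190-54232936 it was 280 bp with 34 fragments, its summit 434 bp from the vehicle summit, which had 60, and the second GSK2879552 summit lay 14 bp from that of vehicle. At the first 4 of these 5 sites the larger part lay under the vehicle summit and the remainder was called as a peak of its own.

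In a further set the tallest point of the interval lay elsewhere after GSK2879552. Outside high-background positions, 918 of 1367 pairs (67.2%) had summits less than 50 bp apart, and 91 (6.66%, 5.39 to 8.11) had them 150 bp or more apart. Among all vehicle peaks with a partner the share at 150 bp or more was 1.42%. Narrow peaks have little room for such a distance: the longer side of the 7266 pairs under 300 bp had a median of 142 bp. The contrast is therefore a description. In 13 of the 91 a second GSK2879552 peak had its summit within 100 bp of that of vehicle, so that these are split intervals. In 89 of the 91 the partner summit lay towards the longer side of the vehicle peak, where there is also more room for it. The share at 150 bp or more rose from 0.797% of even peaks to 19.3% (13.1 to 26.8) of those with sides at least 3 times apart. The classes use the same vehicle sides, and a longer side leaves more room for this distance. At chr10:51767503-51768154, 652 bp wide, the summits lay 356 bp apart, with 51 fragments in vehicle and 33 in GSK2879552, while the partner was 636 bp wide. At chr9:41009176-41009736 the distance was 195 bp, with 46 and 38 fragments, and at chr11:34778527-34779023 it was 160 bp, with 44 and 34. At chr3:105106058-105106562, where the partner was 512 bp against 505 bp in vehicle, the distance was 217 bp, with 46 and 36 fragments, and at chr3:17036535-17036970 it was 177 bp, with 41 and 30. In these 5 pairs the partner width was at least 0.889 times that of vehicle, while the tallest point lay elsewhere in the interval. They were named after their values were seen.

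The widest peaks outside high-background positions were a mixed group, of which 9 are described. The widest, chr5:10071-11796 at the end of the short arm of chromosome 5, measured 1726 bp in vehicle and 1697 bp after GSK2879552, and its fragments numbered 38 and 49. The peak at chr8:94684125-94685405 measured 1281 and 1240 bp with 44 and 40 fragments, and chr17:41399987-41401247 measured 1261 and 1343 bp with 43 and 42. The neighbouring chr17:41381588-41382422 measured 835 and 684 bp, but had more fragments after GSK2879552, 42 against 28. At chr9:66833034-66834069 the values were 1036 and 1019 bp with 98 and 100 fragments. The log2 ratios of these 5 were 0.36, -0.14, -0.04, 0.58 and 0.03. At chr17:22245411-22246265 the widths were 855 and 758 bp at 67 and 62 fragments. At chr10:135500284-135501240, of 957 bp, 2 GSK2879552 peaks were called and fragments went from 27 to 18. The last pair, chr5:84536679-84537554 and chr14:40633257-40634107, went from 876 to 693 bp and from 851 to 378 bp, with 30 and 22 and with 38 and 29 fragments. In vehicle, local backgrounds of the 9 ran from 2.68 to 19.98 fragments and fold enrichments from 3.24 to 10.32. All wide peaks outside high-background positions had medians of 2.47 and 9.87. The highest background and the lowest fold were both at chr17:22245411-22246265. The part of local background and of read placement in these widths and fragment numbers was not tested.

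The lowest ratio of any wide pair was at chr2:187755884-187756357, with 35 fragments in vehicle and 11 in GSK2879552 and widths of 474 and 168 bp. At chr4:87429646-87430066, the second lowest, the fragments numbered 27 and 10. The highest ratios outside the merged site on chromosome 8 were at chr4:102786860-102787306, with 16 and 27 fragments, and chr2:52186818-52187255, with 11 and 18. Both were weak in vehicle. These 4 were chosen after their values were seen.

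The 41 wide peaks at high-background positions behaved otherwise. Their medians were 179 fragments, a local background of 50.8 and a fold enrichment of 3.13, whereas the remaining 1449 had 34, 2.47 and 9.87. Of the 41, 40 had a partner, and the median log2 ratio was -0.05 (-0.08 to 0.00). Their width was nearly the same in both lists, with a median difference of -8 bp (-25.5 to 1.5), and 35 partners were 400 bp or wider. The widest, chr6:58776249-58779600, measured 3352 and 3381 bp with 279 and 267 fragments. It was followed by chr16:46432174-46434701 with 2528 bp, where 2 GSK2879552 peaks were called, and chr18:18518731-18520335 with 1605 and 1551 bp. At chr2:92296177-92297689 the widths were 1513 and 1511 bp, and at chr1:121483987-121485488 they were 1502 and 1496 bp. At chr7:61968592-61969702 and chr19:27731889-27732384 the fragments numbered 333 and 322, and 276 and 277. As background, these stretches border centromeres, where repeated sequence makes read placement uncertain. Whether reads there were placed uniquely, and how duplicates were handled, is not given in the sources used here, and their part in these values was not tested.

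Wide peaks were found on all 23 chromosomes. Their share of the vehicle peaks of a chromosome ran from 1.74% (0.211 to 6.14) on chromosome 22 and 4.74% (3.12 to 6.87) on chromosome 13 to 9.58% (7.80 to 11.6) on chromosome 14. Chromosomes 10 and 8 followed with 9.25% (7.62 to 11.1) and 9.21% (7.73 to 10.9). The intervals of chromosomes 8, 10 and 14 lay above the 7.07% of all chromosomes, and those of 5, 13 and 22 below it. These 23 intervals were not adjusted for their number. At high-background positions were 2 of 125 wide peaks on chromosome 8, 7 of 104 on chromosome 10 and 0 of 92 on chromosome 14. The median log2 ratio of wide pairs was below 0 on each chromosome, from -0.49 on chromosomes 13 and 15 to -0.12 on chromosome 19, where 3 of 13 wide peaks were at high-background positions.

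**Figure D5:**
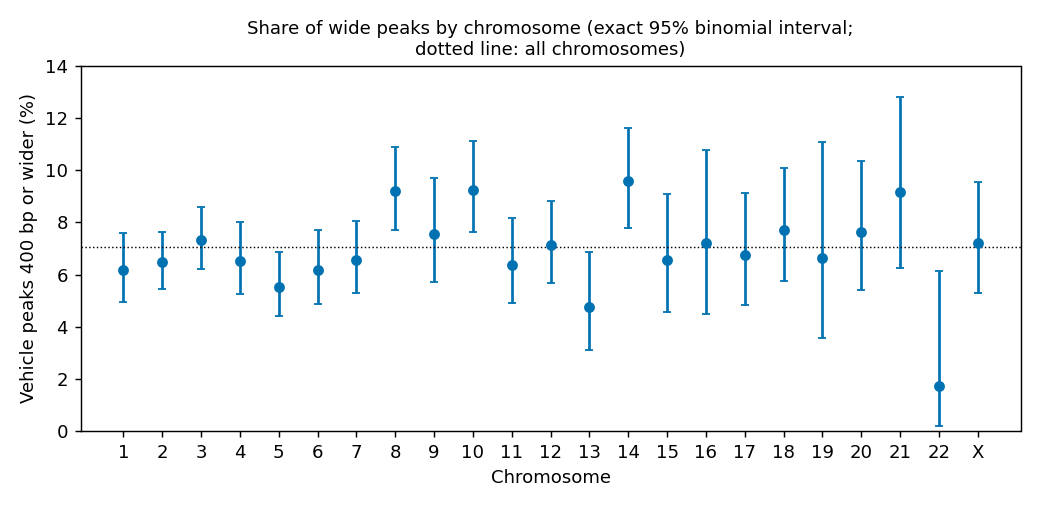
Share of vehicle peaks that were 400 bp or wider (%) on each chromosome, with exact 95% binomial intervals; the dotted line is the 7.07% of all chromosomes together. Chromosomes 8, 10 and 14 lie above the line with their intervals, and chromosomes 5, 13 and 22 below it.

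Other peaks stood near wide peaks more often than near narrower ones, except at the shortest distance tried. Another vehicle summit lay within 5 kb of 18.1% (16.1 to 20.1) of wide peaks and of 17.7% of the other vehicle peaks. At the distance fixed for this share, which lay between 5 and 50 kb, the shares were 39.4% (36.9 to 41.9) and 34.1%. Without high-background positions it was 37.8% (35.2 to 40.3) for wide peaks and 35.4% (34.0 to 36.7) for medium peaks, with overlapping intervals. For peaks under 300 bp it was 33.3% (32.5 to 34.1). Within 50 kb the shares were 73.8% (71.5 to 76.0) and 68.3%. Of 964 windows of 1 Mb with a wide peak, 652 held 1 and 22 held 5 or more. The 3 fullest, on chromosomes 10, 2 and 16, consisted mostly of high-background positions (7 of 12, 8 of 10 and 8 of 9 wide peaks).

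Outside such positions, the fullest window was chr1:172000001-173000000, with 8 wide peaks among 26 in vehicle and 1 wide peak among 23 in GSK2879552. The tallest of them, chr1:172715494-172716017, had 125 and 79 fragments and was the one that stayed wide, with 524 and 580 bp. The peak at chr1:172413749-172414308 went from 560 to 362 bp with 65 and 38 fragments, and chr1:172828357-172828783 from 427 to 355 bp with 59 and 25. At chr1:172607938-172608494 the widths were 557 and 332 bp, and at chr1:172933809-172934329 they were 521 and 318 bp. The remaining 3, chr1:172105052-172105481, chr1:172116486-172116954 and chr1:172816946-172817360, went from 430, 469 and 415 bp to 373, 233 and 311 bp. All 8 had a partner and fewer fragments there. In chr10:76000001-77000000, 7 wide peaks in vehicle stood against 5 in GSK2879552, among 36 and 29 peaks. In chr10:54000001-55000000 it was 7 against 2, among 31 and 21 peaks. Windows were chosen after their values were seen, and a pick by wide vehicle peaks leans towards fewer wide peaks in GSK2879552. Over all chromosomes used, wide peaks made up 7.07% of vehicle and 4.73% of GSK2879552 peaks. Local backgrounds of the 8 chromosome 1 peaks in vehicle ran from 3.43 to 7.63 fragments, and their part was not tested.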

How the data were processed

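Both groups were PC3 FOXA2 libraries, each with 1 peak list. The submitters' processing notes name hg19 (GRCh37), MACS2 2.1.2, BWA 0.7.2 and SAMtools 0.1.18. Not given in the sources used here: options, calling threshold, duplicate handling and any control. In each list, the authors' deposited fold enrichment is a ratio, summit fragments plus 1 over local background plus 1. Deposited −log10 values are p-values and q-values of the authors' peak caller. The deposited score, 10 times the −log10 q, was read but supports no value. Interval ends and summits were used as deposited.

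Fragments and background were computed from fold and −log10 p, as the whole number whose Poisson tail matched within 0.001 in −log10 p, which was found for 100% of peaks in both lists. Depth was estimated as the lowest local background of a list over its shortest interval, taken as the fragment length. Assuming a background made from the same library, this gave 6.17 reads per kb in vehicle and 6.44 in GSK2879552. The lowest backgrounds were 1.079 and 1.082 fragments, so these estimates differ mainly through the shortest intervals of 175 and 168 bp. Fragment ratios were scaled by the lowest background of each list. The partner was the GSK2879552 peak sharing most bp; bedtools 2.31.1 gave the same 1407 overlaps. Scripts (Python 3.11.15, SciPy 1.17.1) were tested on simulated data. Shares carry exact (Clopper-Pearson) 95% intervals.

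Peaks named are the 10 widest, the 5 widest at high background, the 5 with most fragments, the 10 without overlap with the highest −log10 p, the 5 largest width changes each way, 3 on each side of the limit and 5 split peaks; others are marked as chosen after their values were seen. Of the peaks so selected, 2 are not reported here, both with fewer fragments after GSK2879552. Members, lists and rules were chosen with earlier results of these data known. The classes by fragments and by evenness of the sides were set after the data were examined. Motifs, gene starts, gene lists and sequences were not analysed here, since no hg19 genome or annotation was used. Alternatives comprised other width limits, overlap and partner rules, scaling and neighbour distances.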

Additional observations from a re-analysis of the deposited data

Results flagged for a closer look

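Outside chromosomes 1 to 22 and X, which the comparisons do not use, the vehicle list held 31 further peaks of 400 bp or more among 243 peaks, 6 of the 31 on chromosome Y, 2 on the mitochondrial genome and the others on further sequences of the build. Among the 31, 30 overlapped a GSK2879552 peak. They are pointed out as signal in data left out of the report.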

How the results depend on the processing

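Of 34 alternatives, 16 stayed within the interval or 1.5 times of the reported value, 18 moved beyond it and 0 reversed. A width limit of 350 bp gave 3069 peaks, 93.0% overlapping, 38.3% with a partner past the same limit and a median width difference of -69 bp; a limit of 500 bp gave 418 peaks, -96 bp and a median log2 ratio of -0.34. Overlap by 50% of the vehicle peak held for 82.4%, by 50% of both peaks for 82.3%, by summits within 100 bp for 83.7%, and with GSK2879552 peaks at a −log10 q of at least 5 for 90.1%. A GSK2879552 limit of 384 bp, scaled by the shortest intervals, gave 41.2% wide partners, against 35.1% of all wide peaks as reported. Choosing by GSK2879552 width gave -5 bp and a log2 ratio of -0.33, and choosing by the mean width, an alternative added after seeing the data, -35 bp. Fragments above background gave a log2 ratio of -0.41. Neighbours within 5 kb and 50 kb were found for 18.1% and 73.8%. Other limits and distances differ by construction; beyond that, the cause was not tested. The width difference thus depends on which list the choice is made in. Motif, gene-start and gene-list settings were not run. No fit without a lane could be had, as both lanes share a list. No paired analysis was possible because a single list stands for each group. Depth limits which weak sites and low shoulders are called, and its part in the values was not tested.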
